A study of Cyprinus carpio with 12 samples.

Results

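The genes described here are clocka, cry1b and timeless, whose products are linked to the circadian clock, and opn4a, which encodes the light receptor melanopsin. They are 4 of the 41870 protein-coding genes that the RefSeq gene table places on the chromosomes of the common carp (Cyprinus carpio). Regions of differential methylation were assigned to a gene when they lay in its body or within 1 kb of either end. By this rule the genes held 17 of the 41022 regions listed for sperm and 4 of the 39021 regions listed for embryos, and all 21 lay inside gene bodies. The genes were chosen by measured values, that is by holding regions in these same lists, so the counts and differences below are a description and carry no test.

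Whole-genome bisulphite sequencing reads a methylated cytosine as C and an unmethylated one as T. It was applied to sperm kept for 14 days, to fresh sperm (day 0), to mid-blastula embryos fathered with 14-day-old sperm and to mid-blastula embryos fathered with fresh sperm, with 3 libraries in each group. According to the study's methods the sperm came from mature males injected with carp pituitary extract, was diluted with an equal volume of extender and was held on ice, and stored and fresh samples belonged to the same males. Each embryo library pooled 50 to 60 embryos, and the eggs came from a single female, so that nothing here describes other mothers. Strain was not given in the sources used here. The methods mention repeated injection and stripping without saying whether both sperm samples of a male were from 1 stripping. If they were from separate strippings, length of storage cannot be told apart from stripping date, and if from a single one, it cannot be told apart from fertilisation date in the embryos.

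The circadian clock of vertebrates is a feedback loop of transcription. CLOCK, a basic helix-loop-helix protein, pairs with BMAL and switches on period and cryptochrome genes, whose products return to the nucleus and repress the CLOCK and BMAL dimer. Timeless was first known from Drosophila as the partner of Period, whereas in vertebrates it is mainly a protein of the replication fork, where it works with Tipin, and its part in the clock is debated. Melanopsin is an opsin of non-visual light detection that couples to a phospholipase C pathway in retinal cells. In teleosts many tissues sense light directly, and light received by opsins and other sensors sets the phase of the clock in zebrafish cells.

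A region in these lists is a stretch of at least 5 CpG cytosines whose mean level differed by at least 10 percentage points between groups at a p-value below 0.05, limits that were met by every region. Both lists are longer than the sets of differentially methylated regions that the study reports for sperm and embryos. Which of the 21 regions belong to those sets was not examined here. The authors deposited 1 level per group and region. No value per library and no read depth stands behind a level here, so no level carries an error and no difference could be set against the spread between libraries. Differences are given as stored minus fresh in percentage points, and a region called higher or lower is so in the group with stored sperm. The deposited site count includes cytosines of both strands, at least in part. In 235 sperm regions (0.573%) and 229 embryo regions (0.587%) it was larger than a single strand of that width can hold, and in none was it larger than the width. Among the 21 regions described here this was seen in 1, an embryo region of clocka with 7 cytosines in 9 bp, where a single strand could hold 5. If both strands are counted throughout, a region of 5 cytosines may hold as few as 3 CpG dinucleotides.

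The deposited p-values behave as those of a rank-sum test over all cytosines and libraries. Turned back into rank sums with 3 values per cytosine and group, 99.9% of sperm and 99.9% of embryo regions gave a whole number within 0.05. From the rank sum follows the share of all possible pairs of a stored and a fresh value in which the order matched the direction of the region, here called the pair share. It equals 50% where the values are fully mixed and 100% where they do not overlap. Listing at a p-value below 0.05 keeps it above a floor over 50%, which falls as the number of cytosines rises. Ranks of the pair share among regions with unlike numbers of cytosines therefore depend in part on that floor. The pair share had a median over the list of 78.2% in sperm and 77.8% in embryos, and it assumes that the ranks point the same way as the means. It also assumes that no values were tied. How ties at full methylation were ranked is not known, so the pair share is uncertain where levels are nearly full. Cytosines of a library are not independent, so the pair share is no measure of agreement between males.

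In clocka, a gene of the activator CLOCK, stored sperm had more methylation than fresh sperm in 5 of 6 regions (62.0% of the sperm list). The gene (RefSeq gene 109044823) spans 52.2 kb of chromosome B20, from 13219221 to 13271396, and has 6 annotated transcripts. Strand and exons are not part of the gene table used here, so positions are counted from the end with the lower coordinate. The regions are described in that order.

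The first 3 regions formed a group 9.03 to 11.3 kb into clocka, with 1046 and 1010 bp between neighbours. Region 1 (13228250 to 13228384, 7 cytosines) had 98.3% in stored and 84.7% in fresh sperm, a difference of 13.6 points. Region 2 (13229431 to 13229483, 5 cytosines) had 98.9% in stored and 87.4% in fresh sperm, a difference of 11.5 points. Region 3 (13230494 to 13230533, 5 cytosines) had 86.6% in stored and 73.7% in fresh sperm, a difference of 12.9 points. All 3 were thus higher in stored sperm, and the first pair was close to full methylation there, while region 3 had lower levels in both groups. Their pair shares were 76.2%, 81.3% and 76.9%.

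Further along clocka the direction changed between neighbouring regions. Region 4 (13238201 to 13238241, 5 cytosines), 19.0 kb into the gene, had 81.9% in stored and 94.1% in fresh sperm, a difference of -12.1 points. Region 5 (13240181 to 13240203, 5 cytosines), 1939 bp further on, had 93.5% in stored and 73.6% in fresh sperm. That difference of 19.8 points was the largest gain among the 21 regions and exceeded those of 93.1% of the higher regions in the sperm list. The pair share of region 5 was 76.9%, beside a median of 78.2% over the sperm list. Region 6 (13269690 to 13269901, 5 cytosines), 50.5 kb into the gene and 96.9% along it, had 96.5% in stored and 82.0% in fresh sperm, with a pair share of 84.9%. Over its 6 regions clocka averaged 10.02 ± 11.2 points in sperm (SD between regions, n = 6), with the single lower region 4 against 5 higher ones, and none of the 6 had a p-value below 0.001. Regions are not replicates, and listing required at least 10 points in either direction, so the SD is no error of the mean.

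Embryos had 2 regions in clocka, and they pointed in opposite directions. Embryo region 1 (13240406 to 13240414) was the very short one with 7 cytosines, and had 86.3% in embryos from stored sperm and 97.98% in embryos from fresh sperm, a difference of -11.7 points with a pair share of 86.2%. Embryo region 2 (13261635 to 13261715, 5 cytosines), 81.4% along the gene, had 99.0% in embryos from stored and 82.7% in embryos from fresh sperm, a difference of 16.3 points with a pair share of 76.9%. The mean of both, 2.30 points, therefore describes neither, and it turned to -0.0378 points when weighted by cytosines and to -11.7 points when the second was left out for its p-value above 0.001.

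In cry1b, a cryptochrome gene whose zebrafish counterparts include repressors of CLOCK and BMAL, sperm had a single region and embryos had none. The gene (RefSeq gene 109109949) spans 10.0 kb of chromosome A18, from 21889074 to 21899116. The region (21890198 to 21890268, 7 cytosines) lay 1.12 kb from the lower end and had 97.1% in stored and 86.9% in fresh sperm. The difference of 10.2 points was just inside the listing limit of 10 points, and only 4.90% of sperm regions had a smaller one. The pair share was 80.0%, beside a median of 78.2% over the sperm list. The nearest region outside the gene lay 17.2 kb away in both lists, below its lower end.

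In timeless the 8 sperm regions were evenly split, with 4 higher and 4 lower, and embryos had no region. The gene (RefSeq gene 109061335) spans 75.3 kb of chromosome A11, from 3787091 to 3862399, and is the longest of the 4. Along it came 3 lower regions at first, then 4 higher ones, and a lower one nearest the upper end.

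The run of lower regions in timeless began 8.10 kb into the gene. Region 1 (3795189 to 3795322, 5 cytosines) had 57.5% in stored and 71.6% in fresh sperm, a difference of -14.1 points. Region 2 (3797100 to 3797198), 1777 bp further on and with 12 cytosines the richest of the 21, had 72.2% in stored and 84.2% in fresh sperm, a difference of -11.9 points. Region 3 (3825205 to 3825403, 7 cytosines), at the middle of the gene, had 81.6% in stored and 97.8% in fresh sperm. Its difference of -16.2 points came with the highest pair share of all 21 regions, 89.8%, against 76.4% and 75.6% in regions 1 and 2. Region 3 was nearly full in fresh sperm, where ties make the pair share uncertain, whereas regions 1 and 2 had lower levels in both groups.

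The higher regions of timeless followed at once. Region 4 (3827187 to 3827219, 5 cytosines) began 1783 bp after region 3 and had 99.0% in stored and 87.0% in fresh sperm, a difference of 12.0 points. Region 5 (3829557 to 3829623, 8 cytosines) had 98.8% in stored and 88.6% in fresh sperm, a difference of 10.2 points. Region 6 (3838351 to 3838434, 5 cytosines) had 98.9% in stored and 88.7% in fresh sperm, a difference of 10.1 points. These 3 were alike in both levels, nearly full in stored sperm and a little under 90% in fresh sperm, and their pair shares were 80.4%, 81.3% and 76.4%.

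Close to the upper end of timeless a higher and a lower region lay 2106 bp apart. Region 7 (3854582 to 3854679, 7 cytosines) had 93.0% in stored and 81.7% in fresh sperm, a difference of 11.3 points, with the lowest pair share of the 21 regions, 71.2%. Region 8 (3856786 to 3856927, 7 cytosines) had 73.3% in stored and 88.4% in fresh sperm, a difference of -15.1 points, with a pair share of 72.1%. The mean over the 8 regions was -1.73 ± 13.5 points (SD between regions, n = 8), a value that describes no single region. As in clocka, regions are not replicates and the listing limit of 10 points widens the SD, so it is no error of the mean. The mean was -5.99 points over the regions with a p-value below 0.001 and -11.9 points in region 2, the only one with at least 10 cytosines. The closest regions outside timeless lay 12.9 kb away in sperm and 21.5 kb away in embryos.

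In opn4a, a melanopsin gene of the lineage shared with mammals, all regions were lower with stored sperm, 2 of 2 in sperm and 2 of 2 in embryos. Of the lists 62.0% of sperm and 50.4% of embryo regions were higher. The gene (RefSeq gene 109046755) spans 21.3 kb of chromosome A13, from 13283787 to 13305054, and its regions all began within 7.0 kb of the lower-coordinate end. Sperm region 1 (13284600 to 13284714, 7 cytosines), 0.813 kb from that end, had 84.0% in stored and 95.9% in fresh sperm, a difference of -11.9 points with a pair share of 77.6%. Sperm region 2 (13289774 to 13290007, 5 cytosines), 5.99 kb into the gene, had 40.7% in stored and 61.0% in fresh sperm, a difference of -20.3 points with a pair share of 87.6%. It had the lowest levels of all 17 sperm regions and the largest difference, which exceeded that of 91.2% of the sperm list.

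The embryo regions of opn4a were both lower with stored sperm, as in sperm, and only the first overlapped a sperm region. Embryo region 1 (13284600 to 13284637, 5 cytosines) had 86.2% in embryos from stored and 97.0% in embryos from fresh sperm, a difference of -10.8 points with a pair share of 85.8%. Embryo region 2 (13290787 to 13290903, 11 cytosines) had 50.1% in embryos from stored and 73.4% in embryos from fresh sperm. This difference of -23.3 points was the largest of the 21, exceeded that of 94.7% of the embryo list and had a pair share of 78.2%. In each tissue opn4a thus had a highly methylated region near its end with a small difference and an intermediate one further in with a larger difference. The means over regions were -16.1 points in sperm and -17.1 points in embryos.

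**Figure D1:**
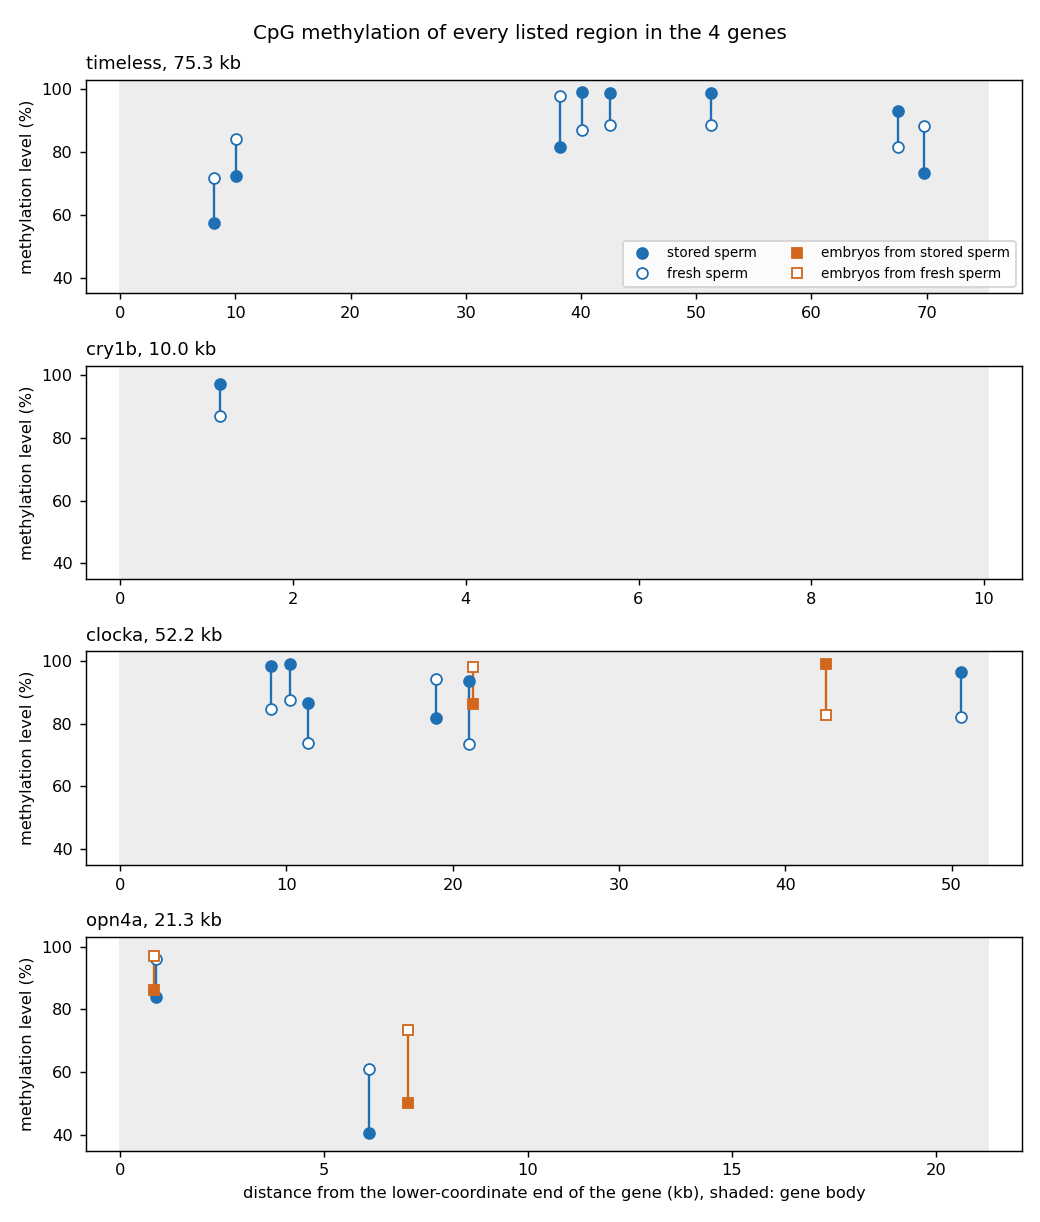
Methylation level (%, vertical axis) of the 21 listed regions against distance from the lower-coordinate end of each gene (kb, horizontal axis), with filled symbols for stored sperm or their embryos, open symbols for fresh sperm or their embryos, and blue circles for sperm and orange squares for embryos. In opn4a every filled symbol lies below its open partner, in timeless 4 lie above and 4 below, and in clocka 5 of 6 sperm regions have the filled symbol on top.

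Presence of a region in these genes has to be read against gene length. All 4 genes held a sperm region, and of all protein-coding genes 28.3% did, but among those of 50 to 100 kb, the class of timeless and clocka, the share was 79.7%, and among those of 10 to 25 kb, the class of cry1b and opn4a, it was 32.2%. For embryos 2 of 4 genes held a region, against 26.9% of protein-coding genes, 76.5% of those of 50 to 100 kb and 29.8% of those of 10 to 25 kb. The number of sperm regions was high for that length. The median gene of 50 to 100 kb had 1 sperm region, 3.23% of such genes had 6 or more as clocka did, and 0.63% had 8 or more as timeless did. Per 10 kb of gene the 4 genes had 0.94 to 1.15 sperm regions, against 0.250 over all protein-coding bodies. A high number is part of what chose the genes, so nothing is read from it. In embryos clocka had 0.383 and opn4a 0.94 regions per 10 kb, against 0.231 over all bodies.

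A gene without a listed region is not shown to be alike in both groups of embryos, since windows that missed the limits are not listed and their levels are not used here.

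Direction and size were set beside those of the lists. In sperm 10 of 17 regions were higher with storage (all regions 62.0%), and in embryos 1 of 4 (all regions 50.4%). The 10 higher sperm regions had medians of 97.7% in stored and 85.8% in fresh sperm, and those of the list were 95.8% in stored and 83.2% in fresh sperm. The 7 lower sperm regions had medians of 73.3% in stored and 88.4% in fresh sperm, and those of the list were 78.3% in stored and 92.4% in fresh sperm. The median absolute difference was 12.1 points in the 17 sperm regions and 14.0 points in the 4 embryo regions, against 12.4 points in the sperm and 12.5 points in the embryo list.

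Most regions of the 4 genes were highly methylated, as were most regions of the lists. A mean level of at least 75% was found in 18 of 21 regions (78.2% of the sperm and 77.1% of the embryo list), the exceptions being region 1 of timeless and the second region of opn4a in each tissue. Of the 10 higher sperm regions 5 reached 98% in stored sperm, against 84.7% or more in fresh sperm, and 22.8% of the higher regions in the list did so. No region differed by the 2-fold change named in the study's methods. The largest ratio of levels was 1.5, in sperm region 2 of opn4a, and 3.94% of sperm and 4.20% of embryo regions reached 2-fold. A p-value below 0.001 stood beside 5 of 17 sperm regions (23.5% of the list) and 3 of 4 embryo regions (24.4% of the list).

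**Figure D2:**
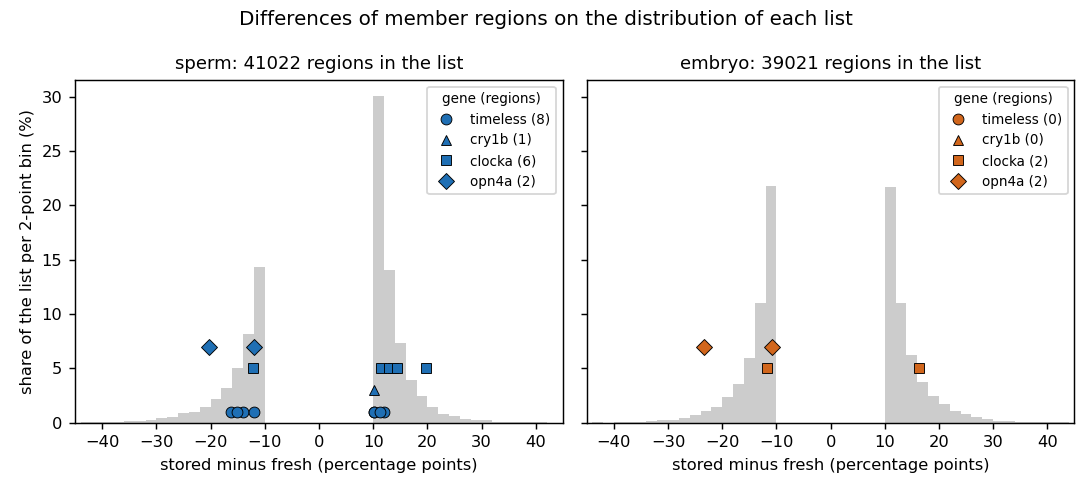
Stored minus fresh difference (percentage points, horizontal axis) of each region of the 4 genes, drawn as symbols at a height that only separates the genes, over the distribution of all listed regions (grey bars, % of the list per 2-point bin), for sperm on the left and embryos on the right. The empty centre is the listing limit of 10 points, and most symbols lie close to it, with opn4a at -20.3 points in sperm and -23.3 points in embryos and clocka at 19.8 points in sperm the farthest out.

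Whether sperm and embryo regions coincide was examined for the 4 embryo regions. In opn4a, embryo region 1 started at the same base as sperm region 1 and all of its 38 bp lay within it. Levels there were 86.2% in embryos from stored sperm and 84.0% in stored sperm, and 97.0% in embryos from fresh sperm and 95.9% in fresh sperm. Between tissues the levels there differed by 2.21 points with storage and by 1.11 points without it. The 10.8 and 11.9 points between stored and fresh are not comparable with these, since listing required at least 10 points. The levels are also means over 5 cytosines in the embryo region and 7 in the sperm region. This pair was the only overlap, 1 of 4 embryo regions against 8.33% of the embryo list. The genes were chosen from these same lists, so nothing is read from that share.

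The other embryo regions lay beside sperm regions without touching them or stood alone. Embryo region 2 of opn4a began 779 bp after sperm region 2 ended, both were lower with stored sperm, and the embryo levels were 9.33 points above those of stored sperm and 12.4 points above those of fresh sperm. In clocka, embryo region 1 lay 202 bp from sperm region 5, and the directions were opposite, with -11.7 points in embryos and 19.8 points in sperm. Fresh levels at these neighbouring sites differed by 24.3 points between tissues, with embryos from fresh sperm at 97.98% and fresh sperm at 73.6%. Here and in the opn4a pair 779 bp apart the sites are not the same. Each region was also listed by its own stored and fresh levels, so no difference between tissues is read from these values. Embryo region 2 of clocka had its nearest sperm region 7974 bp away. With a gap of up to 1 kb allowed, 3 of 4 embryo regions had a sperm region nearby, against 21.4% of the embryo list, and 2 of these 3 had the same direction as the nearest sperm region. Over the whole embryo list 49.3% of the regions with a sperm region within 1 kb did. The 4 genes were chosen from these lists and were dense in sperm regions, so nothing is read from these counts.

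**Figure D3:**
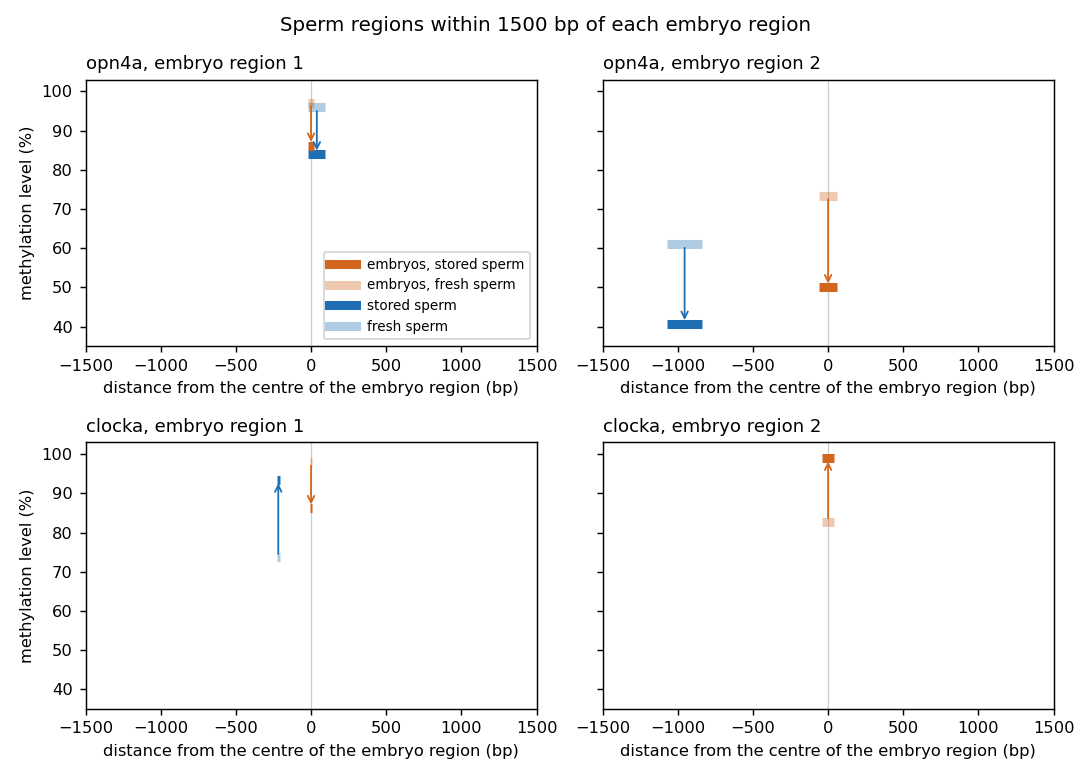
Levels (%, vertical axis) of the embryo regions (orange) of opn4a and clocka and of sperm regions (blue) within 1500 bp, against distance from the centre of the embryo region (bp, horizontal axis), with bars as wide as the region, dark for stored and pale for fresh, and arrows that point at the stored level. Arrows of both tissues point down in opn4a, at overlapping bars in the first panel and 779 bp apart in the second, and point in opposite directions 202 bp apart in clocka.

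Other genes of the clock and of non-visual light detection were taken from a list of 113 symbols that was drawn up with earlier results of these data known. Of these, 44 besides the 4 genes had an entry under that symbol. None of the 44 was an activator or a period gene, and entries of the table without such a symbol were not analysed here. Regions were found in 11 of the 44 genes (25%) in sperm and in 10 (22.7%) in embryos, beside 28.3% in sperm and 26.9% in embryos of all protein-coding genes. These 44 genes had a median length of 8.56 kb, and no share was taken for genes of that length. Nothing is therefore read from these counts of genes or from those per class below. The regions found comprised 16 higher and 4 lower regions in sperm, and 7 higher and 8 lower regions in embryos, with median absolute differences of 10.8 and 12.2 points. The single gene roraa held 10 of these sperm regions. Without it, a count made after its values were seen, 7 of 10 sperm regions and 4 of 11 embryo regions were higher, beside 62.0% and 50.4% of the lists. Levels and directions given for a gene below are those of its listed region or regions, not of the whole gene.

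Of the other cryptochrome genes and relatives, 2 of 4 held a region in embryos and 0 of 4 in sperm, beside 26.9% and 28.3% of all protein-coding genes. In cry4 (B22, 4017474 to 4017532, 8 cytosines) embryos from stored sperm had 95.5% and embryos from fresh sperm 67.5%, a difference of 28.0 points and the largest in the extended list. In cry3a (A8, 10578859 to 10578911, 5 cytosines) embryos from stored sperm had 68.1% and embryos from fresh sperm 88.2%, a difference of -20.2 points. Both lay in the part of their gene nearest the upper coordinate, at 76.3% and 96.5% of its length, and they pointed in opposite directions.

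Of the 10 matched genes of the second loop, 1 held sperm regions and 3 held embryo regions. This class comprised genes of nuclear receptors, which feed back on the activators, and of bZIP factors. The shares over all protein-coding genes were 28.3% in sperm and 26.9% in embryos. The gene with sperm regions was roraa, a nuclear receptor gene of 283 kb. It held 10 sperm regions, 9 of them higher (62.0% of the sperm list). In embryos it held 4 regions, 3 of them higher (50.4% of the embryo list). The number of regions in roraa was not set against its length, so nothing is read from that number. Its largest sperm difference (B25, 16115064 to 16115126) was 23.2 points, with 92.1% in stored and 68.9% in fresh sperm. Its largest embryo difference (16142612 to 16142689) was 13.8 points, with 99.4% in embryos from stored and 85.6% in embryos from fresh sperm. No sperm region of roraa overlapped an embryo region, and 8.33% of the embryo list overlapped a sperm region, so nothing is read from this. The repressor genes nfil3-4 (66.5% in embryos from stored and 81.1% in embryos from fresh sperm) and nfil3-5 (87.1% in embryos from stored and 99.3% in embryos from fresh sperm) were lower in embryos from stored sperm.

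Kinase and ubiquitin ligase genes that act on clock proteins held regions in 3 of 9 genes in sperm and in 2 of 9 in embryos. Of all protein-coding genes 28.3% did in sperm and 26.9% in embryos. All 3 sperm regions were higher, as were 62.0% of the sperm list. The glycogen synthase kinase gene gsk3bb had 93.8% in stored and 80.9% in fresh sperm, and csnk2a2b, a catalytic subunit gene of casein kinase 2, had 94.7% in stored and 80.8% in fresh sperm. Both regions lay in the 1 kb flank and not in the gene body. In gsk3ba sperm had 1 higher region, at 99.0% in stored and 88.5% in fresh sperm, and embryos had 3 regions of both directions, at -12.4, 12.8 and -11.0 points. The F-box gene fbxw11b had 87.3% in embryos from stored and 97.8% in embryos from fresh sperm.

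Among the 21 matched genes of light input and melatonin synthesis 7 held a sperm region and 3 an embryo region, beside 28.3% and 26.9% of all protein-coding genes. The melanopsin relatives of opn4a went both ways in sperm. In opn4.1 stored sperm had 98.2% and fresh sperm 87.6%, whereas in opn4xa stored sperm had 86.8% and fresh sperm 97.5%, and opn4b held no region in either list. In the teleost multiple tissue opsin gene tmtops2a the levels were lower with stored sperm in both tissues, 79.4% in stored and 97.4% in fresh sperm, and 86.3% in embryos from stored and 96.4% in embryos from fresh sperm, at sites 2473 bp apart. Besides opn4a it was the only gene of the light input list with a region in both tissues.

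A further 6 opsin genes had a region in 1 tissue each. Higher in stored sperm were opn3, the encephalopsin gene (97.99% in stored and 87.5% in fresh sperm), valopa, a vertebrate ancient opsin gene (83.7% in stored and 70.5% in fresh sperm), and the flank of parapinopsina, a pineal opsin gene (95.5% in stored and 85.4% in fresh sperm). The opsin gene opn7b was lower, with 88.4% in stored and 99.3% in fresh sperm. In embryos exorh, the pineal exorhodopsin gene, had 94.3% with stored and 83.4% with fresh sperm, and tmtops3a had 73.6% with stored and 50.7% with fresh sperm, a difference of 22.9 points. All but the last of these opsin differences were under 15 points.

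**Figure D4:**
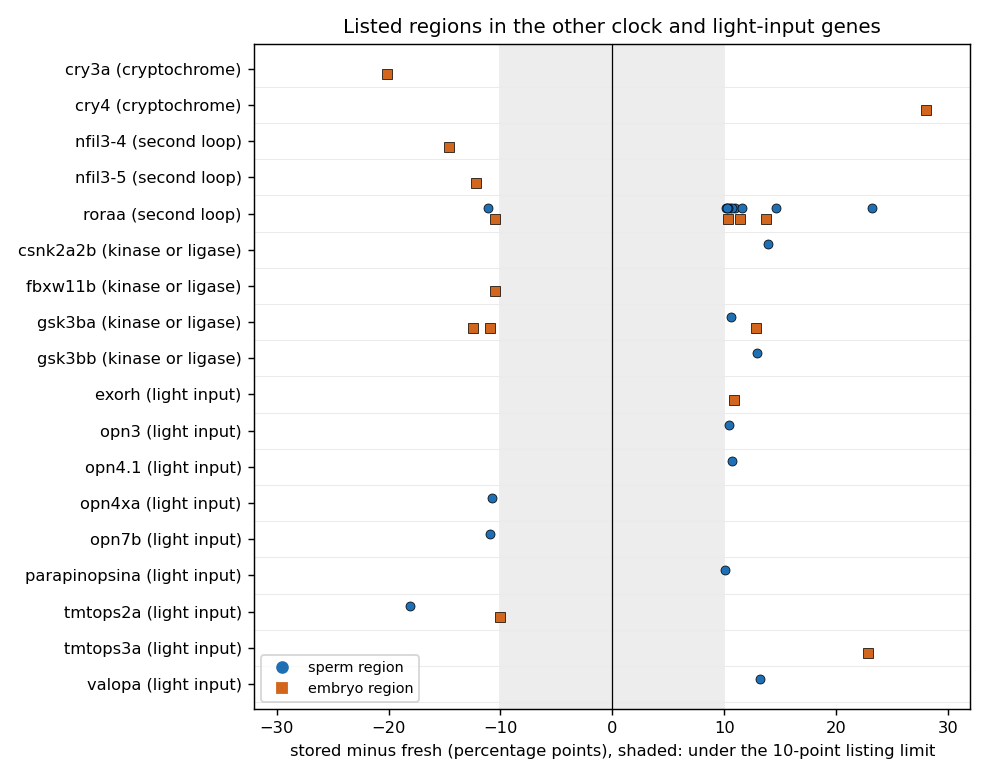
Stored minus fresh difference (percentage points, horizontal axis) of every listed region in the other clock and light input genes (rows), with blue circles for sperm and orange squares for embryos, and the span under the listing limit of 10 points shaded. Of the sperm regions 16 of 20 lie on the right, 9 of them in roraa, and of the embryo regions 7 of 15, with cry4 at 28.0 points and cry3a at -20.2 points the farthest out in each direction.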

How the data were processed

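Per the file headers and the study's methods, the authors mapped bisulphite reads with BSMAP, whose version no source read here states, to the carp assembly ASM1834038v1, removed duplicates and took methylated over all reads as the level. The deposited lists give each region's mean level per group as a fraction, printed here as a percentage, an unadjusted p-value, a count of CpG cytosines and a signed difference. The difference columns equal fresh minus stored within 1e-05 and were otherwise unused. The methods name a Fisher test. The p-values served only for the threshold of 0.001 and the pair share.

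The members and gene lists were chosen with earlier results of these data known. Sorted by accession, the 50 chromosomes were given the table's names, first the 25 of subgenome A and then those of B. Matching by chromosome ends gave the same name for 46 of 50, including those of the 4 genes. Regions on unplaced sequence (3143 in sperm, 3059 in embryos) stayed in list totals. Coordinates are printed as deposited. Genes were matched by symbol, and every other listed gene with a region is named, with its largest region per tissue where it had more than 3. No genome, promoter or protein sequence was used. The calculations (Python 3.11.15, pandas 2.3.3, SciPy 1.17.1) were tested on simulated data, in which the values used for rank sums held no ties.

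Alternatives were a flank of 0 or 5 kb, a difference of at least 0.2, p below 0.001, at least 10 cytosines, weighted means, other definitions of coincidence and the matching by ends.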

Additional observations from a re-analysis of the deposited data

How the results depend on the processing

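No paired analysis was possible because the lists hold 1 mean per group, and for the same reason no library could be left out. The counts of regions depended on the listing limits. With a difference of at least 0.2 the 4 genes held 1 of 17 sperm and 1 of 4 embryo regions, both in opn4a. With at least 10 cytosines they also held 1 and 1. With p below 0.001 they held 5 of 17 sperm regions (23.5% of the list) and 3 of 4 embryo regions (24.4% of the list). Shares of the lists at the limits on difference and cytosines were not taken, so nothing is read from those counts. The single overlap between tissues was lost at each of these 3 limits (0 pairs), and became 3 pairs when a gap of 1 kb was allowed. Of the other clock genes 1 in sperm and 3 in embryos held a region with a difference of at least 0.2, 3 and 1 with p below 0.001, and 0 and 0 with at least 10 cytosines. With a 5 kb flank 19 in sperm and 15 in embryos did, against 11 and 10 with the 1 kb flank. No share over all genes was taken at these settings, so nothing is read from these counts. Where regions were left, means over them kept their sign except in clocka in embryos, at -0.0378 points weighted by cytosines and -11.7 points with p below 0.001. In sperm no region was left in clocka at any of the 3 limits, in cry1b and timeless with a difference of at least 0.2, or in cry1b and opn4a with at least 10 cytosines. For timeless the mean was -5.99 points with p below 0.001, -11.9 points with at least 10 cytosines and -16.2 points in the region with the largest difference alone. Gene bodies alone and chromosome matching by ends left all counts of the 4 genes as they were. Of the other clock genes, 8 in sperm and 10 in embryos held a region with gene bodies alone. With matching by ends 10 in sperm and 9 in embryos did, so some of these assignments depended on the matching. Depth per region was not known, so shallow and deep regions count alike.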
